A study of Mus musculus with 6 samples.

Results

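Trp53, which encodes the tumour suppressor p53, was followed together with 9 genes that regulate p53 or belong to its targets outside apoptosis: Mdm2, Mdm4, Ccng1, Ppm1d, Plk2, Plk3, Sesn1, Zmat3 and Phlda3. The 10 genes were taken by symbol from the 32061 genes of the deposited count table, and all 10 passed the filter on low counts, as did 13839 genes in all. RNA came from mouse biliary epithelial cells, the lining of the bile ducts. Ducts were picked by hand from digested liver, expanded as gel-embedded organoids over 4 to 5 passages, and the cells were then plated flat on collagen. The 3 samples called cilia competent had not received 4OHT, and the 3 called cilia depleted had. 4OHT usually stands for 4-hydroxytamoxifen, a drug that activates tamoxifen-dependent Cre recombinase. The count table names the competent samples WT and the depleted samples KO, without saying which gene is meant. The alleles, any Cre driver, the deleted gene and the age of the mice are not given in the sources used here, so no check of a targeted gene was made. Drug and cilium loss coincide in these samples and cannot be told apart. Nothing in the labels ties a sample to its own animal or culture. The p-values thus rest on the spread among these libraries, which could be technical alone.

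p53 is a transcription factor that is held at a low level because the ubiquitin ligase MDM2 marks it for destruction. Stress signals free p53 from MDM2, and p53 then raises transcription of Mdm2 itself, of the phosphatase gene Ppm1d and of other inhibitors, which closes a negative feedback loop. Much of this control acts on the p53 protein, which RNA counts do not measure. In bile ducts p53 and its target p21 are studied as drivers of cell cycle arrest and senescence after injury.

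Total counts per library were 26293486 to 36998935, and the floor of 3 counts lay between 0.0796 and 0.119 CPM (a gene's counts relative to its library's total, scaled by TMM), which covers counting error only. The biliary identity of the cells was visible in both groups. The 10 biliary markers, Krt7 and Spp1 among them, summed to 6786 to 6861 CPM in competent and 4744 to 4991 CPM in depleted samples. In the test described below, 2 were called higher and 6 lower, 1 was not called and Sctr was under the filter. The called share of the tested markers was 88.9%, against 69.2% of all genes tested (34.9% higher and 34.3% lower). The part of this marker shift in the p53 results was not tested. Hepatocyte, fibroblast and endothelial marker lists summed to at most 25.8, 3.48 and 0.499 CPM in any sample, and Cyp3a11, Col1a2 and Lum had no count. Leukocyte markers summed to 45.4 to 51.3 CPM, nearly all of it Csf1r (47.1 ± 0.402 CPM in competent samples), while the pan-leukocyte gene Ptprc stayed under 1 CPM. For Csf1r, 15.1% of the exon sequence lies across an antisense gene. In bulk RNA, fewer cells of a type and less RNA per cell cannot be told apart.

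Of the 10 genes, 7 rose in the depleted cells, 2 fell and 1, Zmat3, did not pass (edgeR's quasi-likelihood test, Benjamini-Hochberg adjusted p below 0.05 over all genes tested). This comparison called 69.2% of all genes, 34.9% as higher and 34.3% as lower, so the share of the 10 genes that passed says little by itself. Plk3, Mdm2, Plk2 and Ppm1d each rose by more than 2-fold, a size that 7.38% of all genes tested reached. The median log2 change was 0.77 over the 10 genes and -0.01 over all genes tested. For 9 of the 10 the groups had no overlap in CPM, as for 72.5% of all genes.

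**Figure D1:**
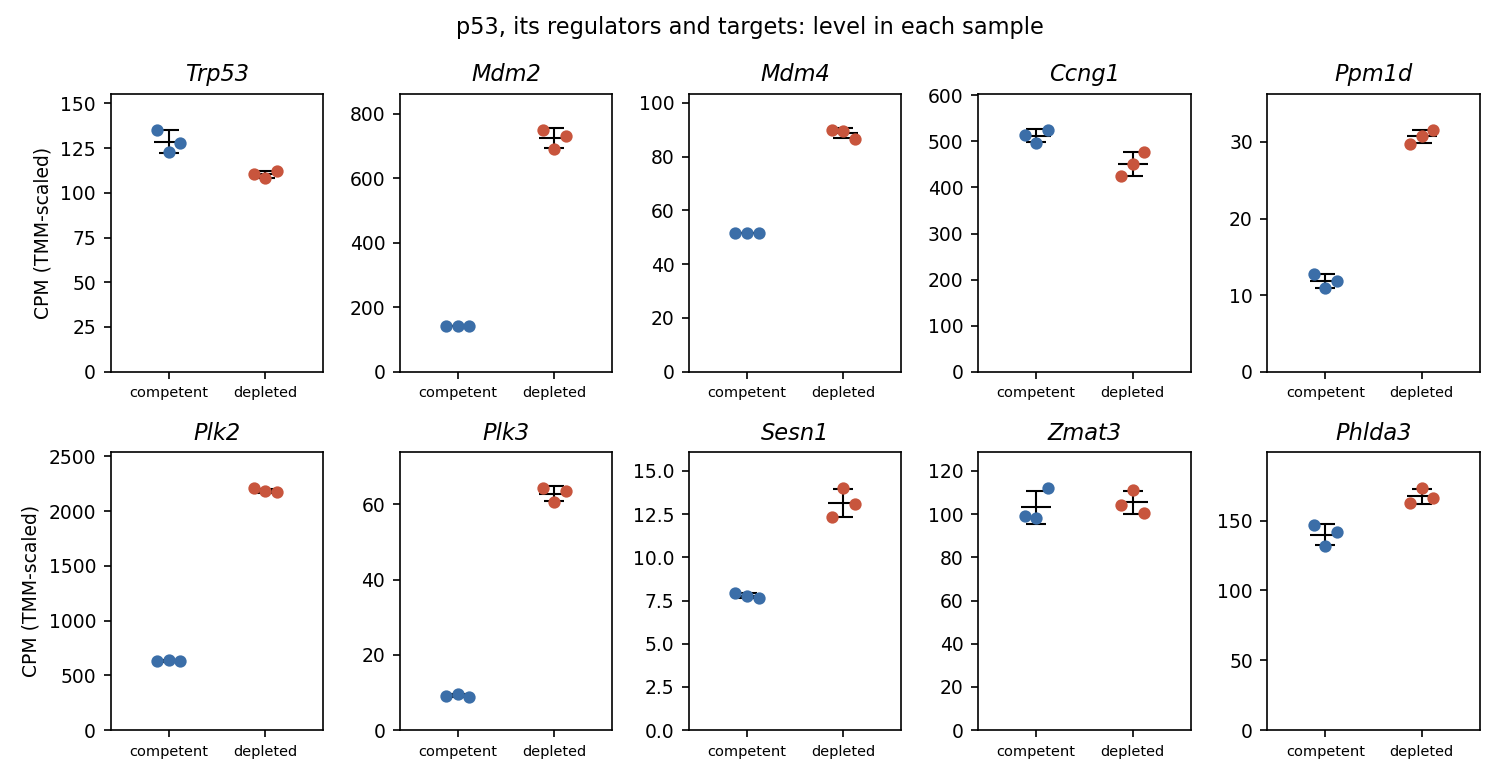
Level of each of the 10 genes in every sample, in CPM scaled by TMM on axes that start at 0, with 3 competent (blue) and 3 depleted (red) samples per panel and black bars for the mean ± SD. Mdm2, Plk2, Plk3 and Ppm1d separate widely, Trp53 and Ccng1 are slightly lower in the depleted samples, and only for Zmat3 do the groups overlap.

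Trp53 itself fell slightly. Trp53 (ENSMUSG00000059552; GRCm38 chromosome 11, 69580359 to 69591873, plus strand) stood at 135, 123 and 128 CPM in competent and at 111, 109 and 112 CPM in depleted samples. Each depleted sample lay below the lowest competent sample. The level was 1.16-fold lower (log2 change -0.22, SE 0.045, adjusted p = 0.000685). The annotation holds a processed pseudogene, Trp53-ps on chromosome 17, which is not among the genes of the deposited counts. Whether reads were shared with it, and whether that changed the size of this small fall, was not tested.

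Mdm2, Mdm4 and Ppm1d, 3 genes whose products restrain p53, each rose, by unequal amounts. Mdm2 (ENSMUSG00000020184; chromosome 10, 117688875 to 117710758, minus strand) was at 142, 141 and 143 CPM in competent and 749.95, 689.8 and 732 CPM in depleted samples. The competent samples lay within a few CPM of each other and the depleted samples all lay far above them. This was a 5.10-fold rise (log2 change 2.35, SE 0.046, adjusted p = 1.14e-13), which placed Mdm2 at rank 116 from the top among 13839 genes. Mdm4 (ENSMUSG00000054387; chromosome 1, 132959484 to 133030561, minus strand) encodes MDMX, a relative of MDM2 that binds p53 and blocks its activation of genes. It was at 51.5, 51.5 and 51.7 CPM in competent and at 89.97, 89.5 and 86.6 CPM in depleted samples. The groups were clearly separate, and Mdm4 rose 1.72-fold (log2 change 0.78, SE 0.042, adjusted p = 2.47e-09). Mdm4 also has a processed pseudogene, Mdm4-ps on chromosome X, which is likewise absent from the deposited counts. Ppm1d (ENSMUSG00000020525; chromosome 11, 85311244 to 85347066, plus strand) encodes WIP1, the phosphatase that removes activating phosphates from p53 and from the kinases upstream of it. Its level was low, at 12.8, 10.9 and 11.8 CPM in competent and 29.8, 30.8 and 31.6 CPM in depleted samples. No depleted sample came near the competent range, and the rise was 2.60-fold (log2 change 1.38, SE 0.068, adjusted p = 1.12e-09).

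The balance between Mdm2 and its partners was compared inside each library, where library scaling plays no part. Per length of transcript there were 0.600, 0.656 and 0.638 Mdm2 mRNAs for each Trp53 mRNA in competent libraries, and 3.88, 3.63 and 3.72 in depleted libraries. By this measure Trp53 mRNA exceeded Mdm2 mRNA in each competent sample and was exceeded by it in each depleted sample. The order in competent samples rests on main transcript lengths of 3099 bases for Mdm2 and 1771 for Trp53. Counts not divided by length were higher for Mdm2 than for Trp53 in competent samples too (4842 against 4610, 4976 against 4338 and 5374 against 4815). Which transcripts the cells made was not tested. The ratio rose 5.93-fold, a log2 difference of 2.57, with an exact two-sided permutation p = 0.1, the smallest that 3 against 3 samples can give. For each Mdm4 mRNA there were 6.33, 6.27 and 6.33 Mdm2 mRNAs in competent and 19.1, 17.7 and 19.4 in depleted samples. The depleted values all lay above the competent ones, by 2.96-fold on average (log2 difference 1.57, exact permutation p = 0.1, again the smallest possible).

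Both polo-like kinase genes of the list rose strongly from very different levels. Plk2 (ENSMUSG00000021701; chromosome 13, 110395046 to 110400844, plus strand) encodes a kinase that p53 induces and that acts in centriole duplication and stress checkpoints. It had 631, 645 and 627 CPM in competent and 2209, 2181 and 2176 CPM in depleted samples. The spread within each group was small beside the gap between them, and the rise was 3.45-fold (log2 change 1.79, SE 0.043, adjusted p = 8.19e-13). Plk3 (ENSMUSG00000028680; chromosome 4, 117128655 to 117133963, minus strand) encodes a stress-responsive kinase that can phosphorylate p53. It had 9.07, 9.62 and 8.84 CPM in competent and 64.2, 60.6 and 63.6 CPM in depleted samples. It showed the highest fold change of the 10 genes, 6.85-fold (log2 change 2.78, SE 0.057, adjusted p = 1.78e-13), at rank 71 of all genes tested. Plk2 and Plk3 were both first described as genes that serum or growth factors induce quickly. A list of 12 immediate-early genes, such as Fos and Egr1, rose at every member in the same samples. Its summed level went from 1455 to 1596 CPM in competent samples up to 30605 to 32837 CPM in depleted samples. All 12 rose by more than 2-fold, where 34.9% of all genes tested were called higher and 7.38% by more than 2-fold. The part of the immediate-early genes in the rise of the p53 genes was not tested.

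Of the remaining targets, Sesn1 and Phlda3 also rose, by smaller amounts. Sesn1 (ENSMUSG00000038332; chromosome 10, 41809935 to 41908424, plus strand), which encodes a sestrin that restrains mTORC1, was low at 7.92, 7.78 and 7.62 CPM in competent and 12.36, 13.99 and 13.08 CPM in depleted samples. The groups did not overlap, and Sesn1 rose 1.69-fold (log2 change 0.76, SE 0.083, adjusted p = 2.25e-06). Phlda3 (ENSMUSG00000041801; chromosome 1, 135766119 to 135769136, plus strand), whose product competes with the kinase AKT for membrane lipids, had 147, 132 and 142 CPM in competent and 163, 173 and 166 CPM in depleted samples. Its rise was small, 1.20-fold (log2 change 0.26, SE 0.048, adjusted p = 0.000302), although every depleted sample exceeded every competent one.

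Ccng1 fell slightly and Zmat3 did not pass. Ccng1 (ENSMUSG00000020326; chromosome 11, 40748552 to 40755311, minus strand) encodes cyclin G1, which recruits protein phosphatase 2A to MDM2 and is among the most regularly induced p53 targets in mouse tissues. Its level was 514, 497 and 525 CPM in competent and 424, 451 and 477 CPM in depleted samples. The depleted samples were all lower, by 1.14-fold on average (log2 change -0.18, SE 0.049, adjusted p = 0.00439). Zmat3 (ENSMUSG00000027663; chromosome 3, 32334792 to 32366014, minus strand), which encodes an RNA-binding zinc-finger protein, had 99.1, 98.3 and 112 CPM in competent and 104, 111 and 101 CPM in depleted samples. These ranges overlapped, and the log2 change of 0.03 had a 95% interval of -0.09 to 0.15 (adjusted p = 0.636).

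Genes with longer transcripts tended to higher log2 changes (Spearman's rho 0.32 across 13831 genes of these same libraries, genes not being replicates), so each change was recomputed with that trend removed. Mdm2, Plk3, Plk2 and Ppm1d then had log2 changes of 2.20, 2.70, 1.66 and 1.24, each somewhat lower than before. Mdm4, with a main transcript of 7105 bases, went from 0.78 to 0.51. Phlda3, with the shortest main transcript of the 10 at 1435 bases, went up from 0.26 to 0.42. Trp53 was at -0.16 and Ccng1 at -0.35, so both stayed lower. Zmat3, with the longest main transcript at 7797 bases, was the exception, since it went from no call to a fall (log2 change -0.26, adjusted p = 0.000170, against 0.178 to 0.987 in its other alternatives).

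**Figure D2:**
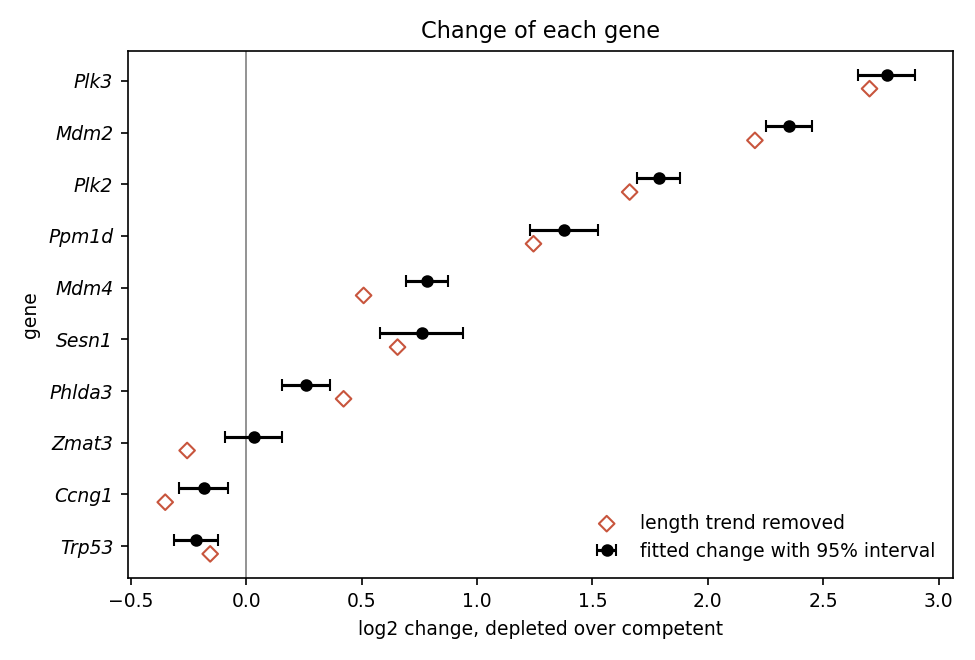
Log2 change of each gene, depleted over competent, on the x axis, with black points and bars for the fitted change and its 95% interval and open diamonds for the value with the length trend removed. The order of the 4 largest rises is the same in both, and Zmat3 moves from 0.03 to -0.26.

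Per length of transcript the 10 genes covered a wide range of levels. In competent cells the order from high to low was Plk2, Ccng1, Phlda3, Trp53, Mdm2, Zmat3, Mdm4, Ppm1d, Plk3 and Sesn1. Plk2 led at 227 ± 3.25 CPM per kb (SD, n = 3) and Sesn1 was last at 2.99 ± 0.0588 CPM per kb. Only Ppm1d, at 4.08 ± 0.329 CPM per kb, and Plk3, at 3.86 ± 0.168 CPM per kb, were neighbours whose samples overlapped. In depleted cells Mdm2 went from position 5 to position 2, at 234 ± 9.95 CPM per kb, and Plk3 from position 9 to position 6, at 26.4 ± 0.809 CPM per kb. The remaining 8 genes kept their order relative to one another. No neighbours overlapped in the depleted samples.

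**Figure D3:**
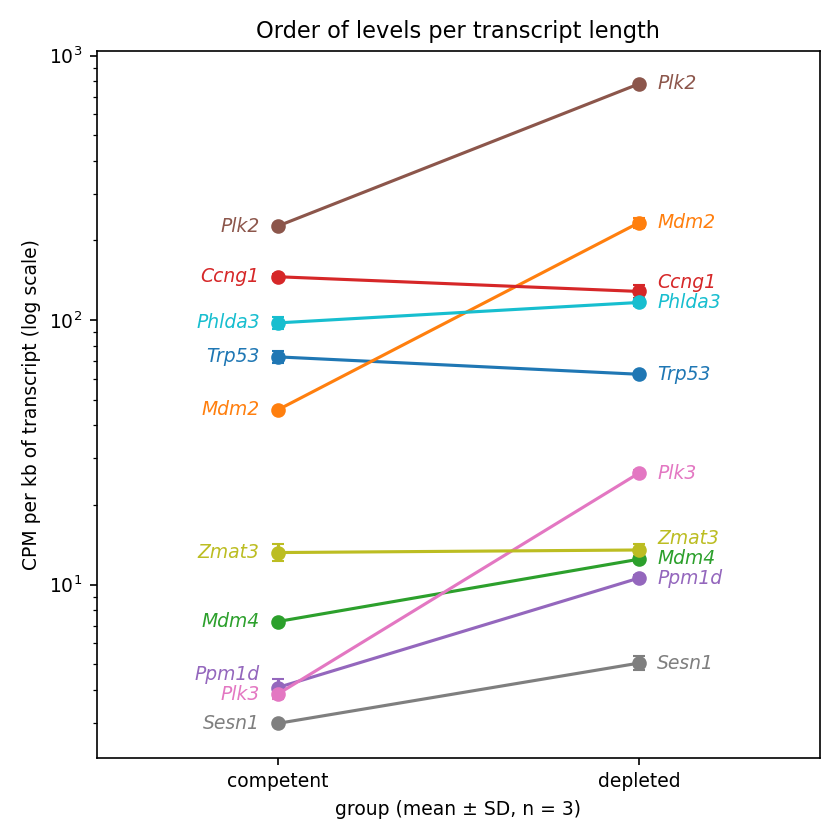
Mean level per kb of main transcript (log axis, CPM per kb, bars show SD, n = 3) of the 10 genes in each group, with a line per gene. The lines of Mdm2 and Plk3 cross others on the way up, Mdm2 passing Trp53, Phlda3 and Ccng1 to reach 234 CPM per kb.

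Promoter sequences are shown for 4 of the genes, because Mdm2, Plk2 and Ppm1d rose together while Ccng1 fell. RefSeq windows on GRCm38.p6 of 300 bases, from 250 before to 50 after a transcript start, were found for 9 of the 10 genes, 11 windows in all. They were searched on both strands for the p53 decamer (the repeat unit of a p53 response element), for a pair of such decamers at most 13 bases apart, for the cAMP response element TGACGTCA, the AP-1 site TGANTCA, the EGR site GCGGGGGCG and the CArG box bound by serum response factor. Positions -250 to -51 are printed 5′ to 3′ on the strand of the gene, with matches in capitals. The stretches are Mdm2 at chr10:117710809-117711008 (minus strand), Plk2 at chr13:110394794-110394993 (plus strand), Ppm1d at chr11:85311004-85311203 (plus strand) and Ccng1 at chr11:40755337-40755536 (minus strand).
Mdm2: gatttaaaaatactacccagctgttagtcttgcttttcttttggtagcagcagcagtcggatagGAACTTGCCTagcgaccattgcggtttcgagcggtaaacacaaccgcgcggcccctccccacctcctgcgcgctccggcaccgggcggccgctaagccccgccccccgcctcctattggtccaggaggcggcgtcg
Plk2: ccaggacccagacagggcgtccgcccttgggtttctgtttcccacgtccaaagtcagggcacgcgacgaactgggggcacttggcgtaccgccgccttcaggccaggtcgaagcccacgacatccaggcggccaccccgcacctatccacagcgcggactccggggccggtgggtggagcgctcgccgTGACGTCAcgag
Ppm1d: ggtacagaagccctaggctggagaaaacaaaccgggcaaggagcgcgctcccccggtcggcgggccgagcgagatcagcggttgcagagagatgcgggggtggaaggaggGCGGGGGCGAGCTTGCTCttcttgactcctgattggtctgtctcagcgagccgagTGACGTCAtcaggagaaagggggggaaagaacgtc
Ccng1: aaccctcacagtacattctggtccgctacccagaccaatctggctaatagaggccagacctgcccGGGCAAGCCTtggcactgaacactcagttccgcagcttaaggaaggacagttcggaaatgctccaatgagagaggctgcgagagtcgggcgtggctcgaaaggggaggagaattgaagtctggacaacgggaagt
Mdm2, which rose, and Ccng1, which fell, each held a p53 decamer at nearly the same distance from the start, GAACTTGCCT at -186 in Mdm2 and GGGCAAGCCT at -185 in Ccng1. Ppm1d held GAGCTTGCTC at -132, whose first base is also the last base of an EGR site that begins at -140. The cAMP response element was found in Plk2 at -62 and in Ppm1d at -85. Trp53 held the decamer GGACTTGCCC at -75, and a second Sesn1 window held AAGCTTGTTT at -173 and, on the opposite strand, an EGR site. An AP-1 site lay in 1 of the 2 Mdm4 windows. The Plk3 and Phlda3 windows held none of these letters. Over all 32851 windows of this length, a p53 decamer was present in 8.36%, a pair of decamers in 0.0731%, the cAMP response element in 1.79%, the AP-1 site in 7.81%, the EGR site in 2.91% and the CArG box in 1.63%. Only exact matches were counted, and by that rule no window of the 10 genes held a pair of decamers or a CArG box. The bases directly before the Ccng1 decamer, agacctgccc, were not counted. They have a C where the decamer pattern requires A or T, and otherwise fit it. The search thus does not show that Ccng1 lacks a pair with a mismatch. The known p53 response elements of Mdm2 lie in its first intron, outside this window, and a match describes letters, not a bound site.

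The wider p53 pathway was read from 4 other lists, with 53 genes, all of them tested. Together 32 rose, 11 fell and 10 did not pass, where 34.9% of all genes tested rose and 34.3% fell. Among 6 targets that act in cell cycle arrest, 5 rose, 0 fell and 1 missed the threshold (median log2 change 0.65). The called share was 83.3%, against 69.2% of all genes. The antiproliferative gene Btg2 led at 17.9-fold, from 125 ± 8.84 to 2229.8 ± 59.9 CPM (SD, n = 3, adjusted p = 1.01e-14). Gadd45a, a stress sensor that binds p21 and PCNA, rose 3.97-fold, although 19.1% of its exon sequence lies across an antisense gene. Cdkn1a, which encodes p21, rose 1.69-fold, the PML nuclear body gene Pml 1.47-fold and the 14-3-3 sigma gene Sfn 1.16-fold. With the length trend removed the log2 change of Pml went from 0.56 to 0.35.

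Of 14 apoptotic targets, 9 rose, 4 fell and 1 missed the threshold (median log2 change 0.22). The called share was 92.9%, against 69.2% of all genes. With the length trend removed 6 rose and 3 fell, and the calls of Aen, Apaf1, Eda2r and Siva1 were lost. Bbc3, which encodes PUMA, rose 5.74-fold from 37.7 ± 2.96 to 216 ± 7.99 CPM (SD, n = 3, adjusted p = 4.67e-13). Pidd1, the scaffold of the PIDDosome that activates caspase-2, rose 2.11-fold, Trp53inp1 1.93-fold and the death receptor gene Tnfrsf10b 1.41-fold. Ei24, a gene of the endoplasmic reticulum membrane, fell most, by 0.69 on the log2 scale.

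Of 13 metabolic and repair targets, 7 rose, 3 fell and 3 missed the threshold (median log2 change 0.24). The called share of 76.9% was near the 69.2% of all genes. Sesn2, the sestrin most tied to the integrated stress response, rose 2.08-fold from 22.2 ± 0.662 to 46.3 ± 1.97 CPM (SD, n = 3, adjusted p = 1.34e-09). The nucleotide excision repair genes Ercc5 and Ddb2 rose 2.06-fold and 1.62-fold, the ferredoxin reductase gene Fdxr 1.56-fold and the translesion polymerase gene Polk 1.55-fold. Ddb2 shares 23.8% of its exon sequence with an antisense gene, and whether counting used strand is not given in the sources used here.

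Of 20 genes whose products act on p53 or MDM2, 11 rose, 4 fell and 5 missed the threshold (median log2 change 0.22). The called share of 75% was near the 69.2% of all genes. Only 2 fell when competent replicate 3, depleted replicate 1 or depleted replicate 2 was left out. With the length trend removed 9 rose and 6 fell, and the ribosomal protein gene Rpl11 turned from a log2 change of -0.16 to 0.10. Sirt1, which encodes a deacetylase of p53, rose 2.41-fold from 18.03 ± 0.486 to 43.3 ± 3.29 CPM (SD, n = 3, adjusted p = 1.15e-09). The damage mediator gene Trp53bp1 rose 1.70-fold, the DNA-dependent protein kinase gene Prkdc 1.64-fold and the acetyltransferase gene Ep300 1.63-fold. All 3 have long transcripts, and with the length trend removed their log2 changes went from 0.77 to 0.45, from 0.71 to 0.36 and from 0.71 to 0.39. For Trp53bp1, 15% of the exon sequence also lies across an antisense gene. Cdkn2a, whose p19Arf product sequesters MDM2 and so protects p53, fell 1.57-fold from 42.1 ± 2.71 to 26.8 ± 0.238 CPM (adjusted p = 2.53e-07). Its log2 change went from -0.65 to -0.40 with the length trend removed. Gene-level counts do not separate p19Arf from p16, the other product of Cdkn2a.

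**Figure D4:**
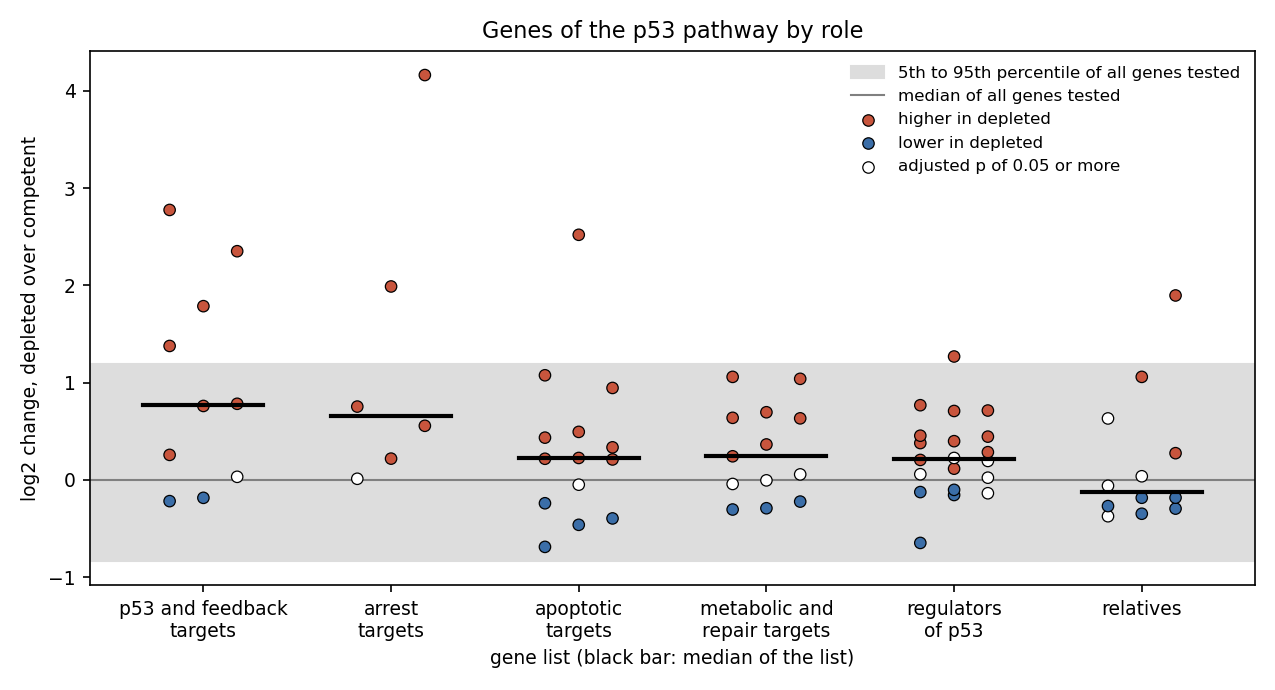
Log2 change, depleted over competent, of every tested gene of the lists (1 point per gene, red higher, blue lower, white not past the threshold), with a black bar for each list's median and a grey band for the 5th to 95th percentile of all genes tested, -0.83 to 1.19. The points above the band are Plk3, Mdm2, Plk2 and Ppm1d on the left, Btg2 and Gadd45a, Bbc3, Sirt1 and, on the right, Phlda1.

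Of 14 relatives of the 10 genes, 12 were tested, 3 rose, 5 fell and 4 missed the threshold (median log2 change -0.12). The called share of 66.7% was near the 69.2% of all genes. The p53 paralogue genes Trp63 and Trp73 were at most a few counts in any sample and were not tested. Phlda1, a relative of Phlda3, rose 3.72-fold from 332 ± 19.9 to 1235 ± 30.1 CPM (SD, n = 3, adjusted p = 2.82e-12), although 33% of its exon sequence lies across an antisense gene. The phosphatase gene Ppm1g and the cyclin gene Ccni fell by 0.35 and 0.30 on the log2 scale, and Sesn3 rose 1.21-fold. The direction for Sesn3 turned with the length trend removed (log2 change -0.04). Whether relatives and members differ was not tested.

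Zfand2a and Gadd45b were among the genes whose profile over the 6 samples lay nearest to Mdm2, out of 10478 genes compared. Likeness was the root mean square difference of log2 CPM after centring each gene, and it was 0.05 for Zfand2a and 0.06 for Gadd45b. Zfand2a, an arsenite-inducible gene, rose 4.97-fold and the stress gene Gadd45b 4.91-fold. With samples that fall into separate groups, this measure mostly finds genes with a change of the same size.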

How the data were processed

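RNA counts from 3 competent and 3 depleted samples were analysed. The submitters' processing notes list STAR 2.7.1a, featureCounts, cutadapt 1.16 and GRCm38, among other tools. Their settings, the annotation and strand use are not given in these sources. The authors deposited unscaled whole-number counts per gene, not normalized, in a single table with 0 columns of other samples. Columns named WT were taken as competent and KO as depleted, by replicate number. Coordinates and main transcript lengths came from GENCODE M21, which held 32009 of the 32061 identifiers.

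The test was that of edgeR 4.0.16 (R 4.3.3; filterByExpr, TMM, glmQLFit and glmQLFTest with the group as the only term, two-sided, Benjamini-Hochberg over 13839 genes, threshold 0.05). Fold changes are depleted over competent. CPM values are scaled by TMM. Standard errors are the log2 change divided by the root of F, and 95% intervals use the degrees of freedom of the fit. Every gene's adjusted p comes from this test unless another is named. The code was tested on simulated data. Chi-square per degree of freedom was 5.33 to 9.44 within groups, above counting error alone, so each sample was kept as a separate library. Whether the samples are independent animals or cultures cannot be read from this value.

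The 10 genes, the lists and the naming rule were chosen with earlier results of these data known. The rule took the 10 genes, up to 5 called genes per list with the largest change and the 3 profiles nearest to Mdm2, of which 1 is not reported here. Alternatives were other scalings, DESeq2 1.42.0, limma-voom (limma 3.58.1), other filters, a replicate block, each sample left out and a loess curve on transcript length per library.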

Additional observations from a re-analysis of the deposited data

How the results depend on the processing

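For 9 of the 10 genes the direction and the call were the same in all 14 alternatives. Log2 changes ranged from 2.20 to 2.39 for Mdm2, 2.70 to 2.80 for Plk3, 1.66 to 1.79 for Plk2, 1.24 to 1.43 for Ppm1d, -0.27 to -0.16 for Trp53 and -0.35 to -0.14 for Ccng1. Zmat3 turned negative with upper-quartile factors (-0.018), with the length trend removed (-0.26), without competent replicate 2 (-0.0093) and without depleted replicate 2 (-0.0087), with -0.0093 to 0.088 when each sample was left out. Its call changed only with the length trend removed, and the cause was not tested. The number of p53 regulators called lower was 2 to 4 with a sample left out, 5 with upper-quartile factors and 6 with the length trend removed, against 4. The log2 difference of the Mdm2 to Mdm4 ratio was 1.54 to 1.61 when each sample was left out. That of the Mdm2 to Trp53 ratio was 2.53 to 2.60. Neither ratio was recomputed with the length trend removed. Removing that trend moved the log2 changes of their genes unequally, from 2.35 to 2.20 for Mdm2, -0.22 to -0.16 for Trp53 and 0.78 to 0.51 for Mdm4. Genes called were 4832 higher and 4744 lower, and 4164 and 5495 with the length trend removed. The labels do not say that a replicate number marks a shared animal, batch or day, and deviations of same-numbered samples correlated at -0.03 to 0.01. With the replicate block 4828 genes were higher and 4698 lower, and 7 of the 10 genes rose and 2 fell as before. At these depths the 10 genes had at least 270 counts in every sample.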

Other observations

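Cell cycle genes that p53 is known to lower through p21 and the DREAM repressor complex were called about as often as all genes. Of 12 tested, 4 were higher, 5 lower and 3 not called in the depleted samples, with a median log2 change of -0.01. The called share was 75%, against 69.2% of all genes (34.9% higher and 34.3% lower). The proliferation marker gene Mki67 was 1.72-fold higher, at 118 ± 7.32 against 68.3 ± 11.3 CPM (SD, n = 3, edgeR adjusted p = 4.38e-06), and the phosphatase gene Cdc25c 1.46-fold higher. The mitotic cyclin genes Ccnb2, Ccnb1 and Ccna2 were lower, with log2 changes of -0.50, -0.39 and -0.34. Each of these 5 kept its direction with the length trend removed, at 0.47, 0.56, -0.37, -0.48 and -0.47 in the same order. Antisense genes overlap 12.7% of the exon sequence of Cdc25c and 12.5% of that of Ccna2.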
